A study of Homo sapiens with 6 samples.

Results

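The 55 genes described here code for histones and for the enzymes and remodelling machines that act on chromatin. They were chosen by symbol, as every row whose symbol begins with that of a histone (H1-, H1F, H2A, H2B, H3 or H4) or with KDM, KMT, KAT, SETD, HDAC, DNMT, SMARC, CHD, ARID or BRD, and they are 55 of the 5117 genes in the table analysed. By symbol they include 5 replication histones, 6 histone variants and 1 histone pseudogene. The 13 writers, also classed by symbol, are 9 histone methyltransferases, 3 acetyltransferases and the DNA methyltransferase DNMT1. The 13 erasers are 7 demethylases and 6 deacetylases. The 13 remodelling factors are 9 SMARC or SWI/SNF ARID proteins and 4 CHD proteins. The rest are 3 other ARID proteins and 1 bromodomain reader. RefSeq lists 200 protein-coding genes with such symbols, of which 54 have a row, among them 5 of 70 replication histones. The others were not analysed here.

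RNA was sequenced from wild-type HMC3 cells, an established human microglial line kept in culture, in 6 libraries. In 3 libraries the cells had received C1s-CM, a medium with the complement serine protease C1s, and in 3 they had received control CM without C1s, in libraries titled FLAG. The series title sets the comparison in work on C1s, immunosuppression and the metabolism of microglia in mesenchymal glioblastoma. The labels name neither the source of the medium, the time in it nor separate cultures, so the p-values reflect no more than the scatter of these 6 libraries, which could be technical.

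DNA is wound around octamers of the core histones H2A, H2B, H3 and H4, and linker histone H1 sits on the DNA between them. Replication histones come from clustered genes that lack or nearly lack introns, are made in S phase, and end their messages in a stem-loop bound by SLBP instead of a poly(A) tail, whereas variants such as H3.3 and H2A.Z are made throughout the cell cycle from polyadenylated messages. Writers add acetyl or methyl groups to histones or DNA, erasers remove them, and remodelling ATPases slide, evict or exchange nucleosomes, and microglia are known to depend on such factors for their inflammatory programmes. The libraries were made from poly(A) RNA per the labels' protocols, so replication histone messages that end at the stem-loop are outside what was selected.

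The table holds only genes that had passed the authors' own test, so a call here gives a size and an error and is no independent evidence of a change. Its counts summed to 14195082 to 14961744 in the C1s-CM libraries and to 12730766 to 13863120 in the control libraries, and other reads of the same libraries lie outside the table. Levels are given as CPM, counts scaled to a common library total with TMM factors. The labelled cell type could not be checked against microglia and macrophage markers in these rows. None of 6 astrocyte, 5 neuron or 4 T cell markers has a row, and the 3 of 7 fibroblast and mesenchymal markers that do (COL1A1, FN1 and THY1) summed to 304293 to 324049 counts in C1s-CM and 241875 to 268974 in control libraries. The part of these differences in the results was not tested. The exons of 27 of the 55 genes share bases with another gene, 22 of them with a gene on the opposite strand, and the use of strand in counting is not given in the sources used here. In bulk RNA, fewer cells that express a gene and less of its RNA per cell cannot be told apart.

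Of the 55 genes, 30 were higher and 24 lower in C1s-CM by edgeR (quasi-likelihood test, Benjamini-Hochberg adjustment over 5116 genes), and 1, BRD2, did not pass the threshold of 0.05. Of all genes tested, 50.9% were called higher and 48.5% lower, so the share called is that of the table. DESeq2 called 26 higher and 24 lower, where 96.4% of all genes were called, and total-count scaling 9 higher and 25 lower, where 75.3% were. The classes split unevenly. All 5 replication histones and 10 of 13 erasers were higher, 8 of 13 writers and all 3 other ARID proteins were lower, and the variants (3 higher, 3 lower) and remodelling factors (7 higher, 6 lower) were mixed. With total-count scaling 2 replication histones and 1 eraser were called higher, while writers had 3 higher and 8 lower calls, remodelling factors 2 and 6, and the 3 other ARID proteins were called lower. Sizes were small. The median absolute log2 fold change was 0.23 over the 55 genes and 0.31 over all genes tested, and 9 of the 55 reached 0.5, a size that 21.5% of all genes reached. For 54 of the 55 the CPM of the groups did not overlap, against 97.2% of all genes, and ARID1A was the exception.

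**Figure D1:**
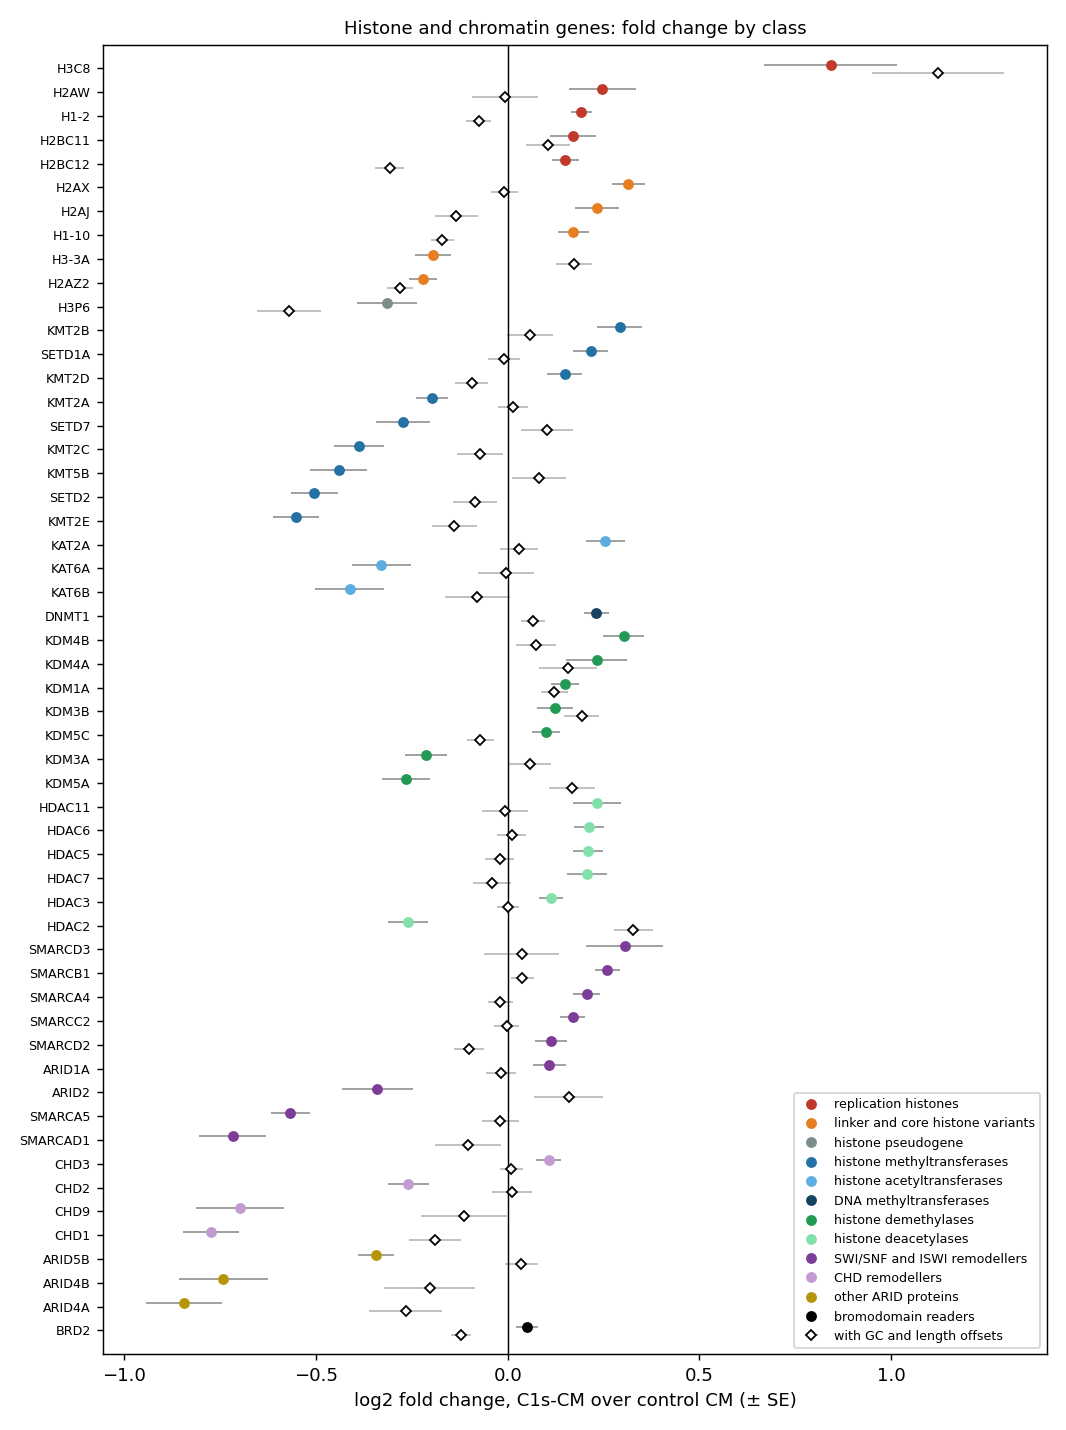
The log2 fold change of C1s-CM over control CM (x axis) of 54 of the 55 genes, ordered by class, is drawn as a filled point with its SE, and an open diamond with its SE gives the same after correction for GC content and transcript length. Filled points run between -0.84 (ARID4A) and 0.84 (H3C8), while most diamonds lie close to 0.

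The fold changes followed the base composition of the messages, in these genes as in the table. Among the 43 chromatin regulators, 23 of 23 with a transcript GC content of 50% or more had a fold change above 0 and 0 of 20 with less did. Over all genes these counts were 2475 of 2525 (98.02%) and 159 of 2587 (6.15%). Spearman's rho between log2 fold change and GC content was 0.81 over the 55 genes and 0.85 over 5112 genes, and for transcript length it was -0.47 and -0.55, given as descriptions across genes that share the same 6 libraries. The 12 histone rows kept to this less closely. H3C8 and H2BC11 were higher with GC contents of 42.7% and 49.05%, and H2AZ2 and H3P6 were lower with 50% and 51.6%. The value of H3C8 is for an annotated transcript of 2411 bases, whose coding part alone has 61.3%. With offsets that level each library on GC content and transcript length, 6 of the 55 genes were called higher and 8 lower, against 14.2% and 11.7% of all genes. The cause of the GC trend was not tested, and each class is given below with both fits.

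**Figure D2:**
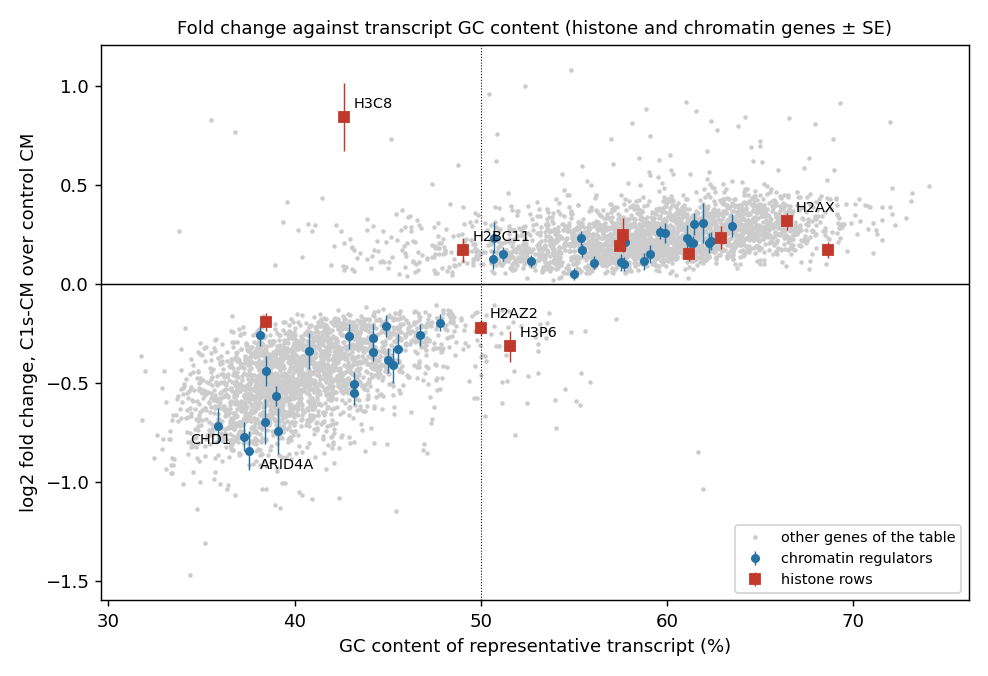
The log2 fold change of C1s-CM over control CM (y axis) is plotted against the GC content of the representative transcript in percent (x axis), with grey points for the other genes of the table, blue points with SE for the 43 chromatin regulators and red squares with SE for 11 histone rows. Every blue point right of the dotted line at 50% lies above 0 and every one left of it below 0. H3C8, drawn at the GC content of its long annotated transcript, stands apart at the upper left. The axis omits 6 genes with changes beyond 1.6 log2 units.

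All 5 replication histone rows were higher in C1s-CM, with a median log2 fold change of 0.19 against 0.08 over all genes tested. Scaling by total counts alone put the median of all genes at -0.05, and the 5 then had a median of 0.07 with 2 called, H3C8 and H1-2. With the GC and length offsets 1 was called higher and 1 lower, where 25.9% of all genes were called. The stem-loop is shown for the histone transcripts in which it was found, because it tells a replication-type 3' end from an ordinary one. Capitals mark the match to the stem GGCNCU, the loop UUUN and the stem AGNGCC without a gap, where N is any base, in GENCODE 29 transcripts of GRCh38, read 5′ to 3′ on the message strand alone.
H3C8: aaaaaGGCUCUUUUAAGAGCCgccua
H2AW: auaaaGGCUCUUUUCAGAGCCaccua
H2AX: acaaaGGCCCUUUUAAGGGCCaccac
These letters occur in 4 of 5113 representative transcripts (0.0782%), the other one being NOP58. They begin after 35 bases of untranslated sequence in H3C8, 40 in H2AW and 49 in H2AX, and in each case the annotated transcript runs on past them, by 1518, 390 and 1044 bases. In H3C8 an AAUAAA, the usual poly(A) signal, lies 22 bases from the transcript's end. The annotated transcripts of H1-2 and H2BC12 stop at the end of the coding part, and the representative transcript of H2BC11 has 2 exons, no such match and an AAUAAA 21 bases from its end.

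H3C8 codes for the replication form of histone H3, in the large histone cluster on chromosome 6 (chr6:26269405-26271815, minus strand, 1 exon, GRCh38). It had 7.40, 5.19 and 5.95 CPM in C1s-CM libraries, against 3.41, 3.04 and 3.84 CPM in control libraries. The counts behind these were 101, 74 and 81 in C1s-CM and 45, 43 and 56 in control libraries, the lowest of any histone row. All C1s-CM libraries lay above all control libraries, and C1s-CM was 1.79-fold of control, a log2 fold change of 0.84 ± 0.17 (SE, edgeR adjusted p = 9.62e-05). With the offsets it was 1.12 (edgeR adjusted p = 2.54e-05), and it was called in every fit run. Its offset rests on the only annotated transcript, of 2411 bases, which runs on past the stem-loop. The GC content is 61.3% in the coding part and 37.9% in the 3' untranslated part, so the offset depends on the message end assumed. H2AW, a replication H2A on chromosome 1 (chr1:228456979-228457873, minus strand), had 25.5, 22.9 and 21.6 CPM in C1s-CM libraries, against 20.9, 18.1 and 20.1 CPM in control libraries. The gap between its groups was narrow, the log2 fold change was 0.25 ± 0.09 (SE, edgeR adjusted p = 0.0101), and the call was lost without C1s-CM library 1 (0.18, edgeR adjusted p = 0.0667) and without control library 2 (0.19, edgeR adjusted p = 0.0581). With the offsets it was -0.0079 (edgeR adjusted p = 0.963).

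H1-2 is a linker histone of the replication type, at chr6:26055787-26056428 on the minus strand. It had 726, 694 and 703 CPM in C1s-CM libraries, against 603, 635 and 621 CPM in control libraries. No library of one group reached the other, and the SE is the smallest of the class, with a log2 fold change of 0.19 ± 0.03 (SE, edgeR adjusted p = 1.32e-06) and, with the offsets, -0.076 (edgeR adjusted p = 0.0946). H2BC11 and H2BC12 code for nearly the same H2B, and their coding sequences share 351 of 381 bases (92.1%), so reads may be split between them. H2BC11 (chr6:27125897-27132750, minus strand) had 43.4, 45.2 and 42.2 CPM in C1s-CM libraries, against 37.7, 39.6 and 38.9 CPM in control libraries. H2BC12 (chr6:27146418-27146798, minus strand) had 287, 266 and 278 CPM in C1s-CM libraries, against 244, 264 and 241 CPM in control libraries. Both were higher in every C1s-CM library than in any control library, H2BC12 by a narrow step. Their log2 fold changes were 0.17 ± 0.06 (SE, edgeR adjusted p = 0.00921) and 0.15 ± 0.04 (SE, edgeR adjusted p = 0.000393). With the offsets they parted, at 0.11 (edgeR adjusted p = 0.202) for H2BC11 and -0.31 (edgeR adjusted p = 1.2e-06) for H2BC12, which turned to lower in C1s-CM. The offset of H2BC12 rests on its coding-only annotation of 381 bases.

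The promoters of the 4 replication histones on chromosome 6 are shown since these genes were higher together in the fit without offsets. With the GC and length offsets H2BC12 was called lower and H1-2 stood at -0.076. Total-count scaling called only H3C8 and H1-2. Each promoter is given as 250 bases before to 50 after the start in RefSeq GRCh38.p14 on the minus strand, read 5′ to 3′. Capitals mark the octamer ATTTGCAT (known from H2B promoters, bound by OCT1), the CCAAT box CCAAT and the TATA letters TATAAA, each searched on both strands, so that ATGCAAAT, ATTGG and TTTATA are matches too and TTTATAAA holds overlapping matches of the last kind.
H1-2 (chr6:26056421-26056720): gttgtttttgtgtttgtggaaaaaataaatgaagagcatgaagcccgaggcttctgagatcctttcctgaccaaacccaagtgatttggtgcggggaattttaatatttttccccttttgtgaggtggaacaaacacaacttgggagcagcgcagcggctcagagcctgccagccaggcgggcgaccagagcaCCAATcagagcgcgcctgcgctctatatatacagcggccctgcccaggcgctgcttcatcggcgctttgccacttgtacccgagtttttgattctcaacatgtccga
H3C8 (chr6:26271364-26271663): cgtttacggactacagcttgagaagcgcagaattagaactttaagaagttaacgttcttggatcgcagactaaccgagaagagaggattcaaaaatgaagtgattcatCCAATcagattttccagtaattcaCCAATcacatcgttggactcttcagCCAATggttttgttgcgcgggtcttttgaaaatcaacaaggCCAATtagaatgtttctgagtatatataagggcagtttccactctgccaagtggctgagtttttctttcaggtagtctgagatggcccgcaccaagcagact
H2BC11 (chr6:27132746-27133045): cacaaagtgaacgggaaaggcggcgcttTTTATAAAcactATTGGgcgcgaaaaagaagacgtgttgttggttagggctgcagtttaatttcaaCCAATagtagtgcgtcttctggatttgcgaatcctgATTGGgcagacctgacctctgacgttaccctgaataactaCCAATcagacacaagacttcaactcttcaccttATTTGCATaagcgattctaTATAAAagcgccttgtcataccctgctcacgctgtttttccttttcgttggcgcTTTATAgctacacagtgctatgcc
H2BC12 (chr6:27146809-27147108): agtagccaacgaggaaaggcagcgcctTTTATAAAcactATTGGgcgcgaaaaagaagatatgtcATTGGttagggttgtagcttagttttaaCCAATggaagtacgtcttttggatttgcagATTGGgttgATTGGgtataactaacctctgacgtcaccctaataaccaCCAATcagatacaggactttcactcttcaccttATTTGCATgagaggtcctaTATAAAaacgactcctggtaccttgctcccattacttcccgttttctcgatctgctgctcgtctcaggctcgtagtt
The octamer stands in both H2B promoters and in 3 of the 48 promoters found for the 55 genes (the third is CHD9's), against 1.77% of 35116 promoters. A CCAAT box stands in all 4 and in 19 of the 48, against 34.6% of all. It also stands in the promoters of H2AZ2 and H3-3A, which were lower without the offsets. Of the variants higher without them, H2AX and H2AJ have it and H1-10 does not. TATAAA stands in both H2B promoters and in 5 of the 48, against 11.5% of all. A match describes letters and not a bound site, and no match says only that those letters are not in this window. The window of H3C8 lies within its GENCODE transcript, so its letters are upstream of the RefSeq start alone.

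The 6 histone variant rows moved both ways, 3 higher and 3 lower in C1s-CM. H2AX, whose phosphorylated form marks DNA breaks and whose message can end either at a stem-loop or in a poly(A) tail, had 762, 636 and 672 CPM in C1s-CM libraries, against 525, 573 and 566 CPM in control libraries. H2AJ, a variant H2A known from senescent cells, had 49.6, 53.1 and 50.8 CPM in C1s-CM libraries, against 41.7, 43.9 and 45.01 CPM in control libraries. H1-10, a divergent linker histone, had 284, 243 and 263 CPM in C1s-CM libraries, against 227, 242 and 231 CPM in control libraries. None of the 3 overlapped between the groups, although those of H1-10 nearly met. Their log2 fold changes were 0.31 ± 0.04 (SE, edgeR adjusted p = 6.27e-07) for H2AX, 0.23 ± 0.06 (SE, edgeR adjusted p = 0.000601) for H2AJ and 0.17 ± 0.04 (SE, edgeR adjusted p = 0.000416) for H1-10. All 3 were below 0 with the offsets, at -0.0087 (edgeR adjusted p = 0.891), -0.13 (edgeR adjusted p = 0.084) and -0.17 (edgeR adjusted p = 0.00014) in the same order, and H2AJ was at 0.54 when its longest transcript set the offset. H1-10 also shares exon bases with the antisense gene H1FX-AS1, and without strand such reads cannot be told apart.

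Among the lower variants, H3-3A and H2AZ2 are not tied to S phase. H3-3A, 1 of the 2 genes for the replacement histone H3.3, had 169.6, 148 and 161 CPM in C1s-CM libraries, against 176, 198 and 173 CPM in control libraries. H2AZ2, 1 of the 2 genes for H2A.Z, had 138, 139.5 and 145 CPM in C1s-CM libraries, against 169.5, 162 and 162 CPM in control libraries. In both the C1s-CM libraries lay below all control libraries. Their log2 fold changes were -0.19 ± 0.05 (SE, edgeR adjusted p = 0.000423) for H3-3A and -0.22 ± 0.04 (SE, edgeR adjusted p = 5.11e-06) for H2AZ2. With the offsets H2AZ2 was -0.28 (edgeR adjusted p = 7.98e-07), while H3-3A turned to 0.17 (edgeR adjusted p = 0.00714), a call lost without control library 3 (0.14, edgeR adjusted p = 0.0641). With the longest transcript setting the offset H2AZ2 stood at 0.13 and H3-3A at 0.03, so the direction of H2AZ2 and the call of H3-3A depend on the transcript assumed. H3P6, a processed pseudogene of H3.3 on chromosome 2, had 24.97, 23.8 and 24.8 CPM in C1s-CM libraries, against 27.4, 31.5 and 32.4 CPM in control libraries. It was lower in every C1s-CM library, at a log2 fold change of -0.32 ± 0.08 (SE, edgeR adjusted p = 0.000586). Its 411 bases are identical to the coding part of H3-3A, so reads of these bases cannot be assigned to either gene. With the offsets H3P6 was at -0.57 (edgeR adjusted p = 1.37e-05) and H3-3A at 0.17. The 2 rows thus parted although they share these bases, and their offsets rest on different annotated transcripts.

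**Figure D3:**
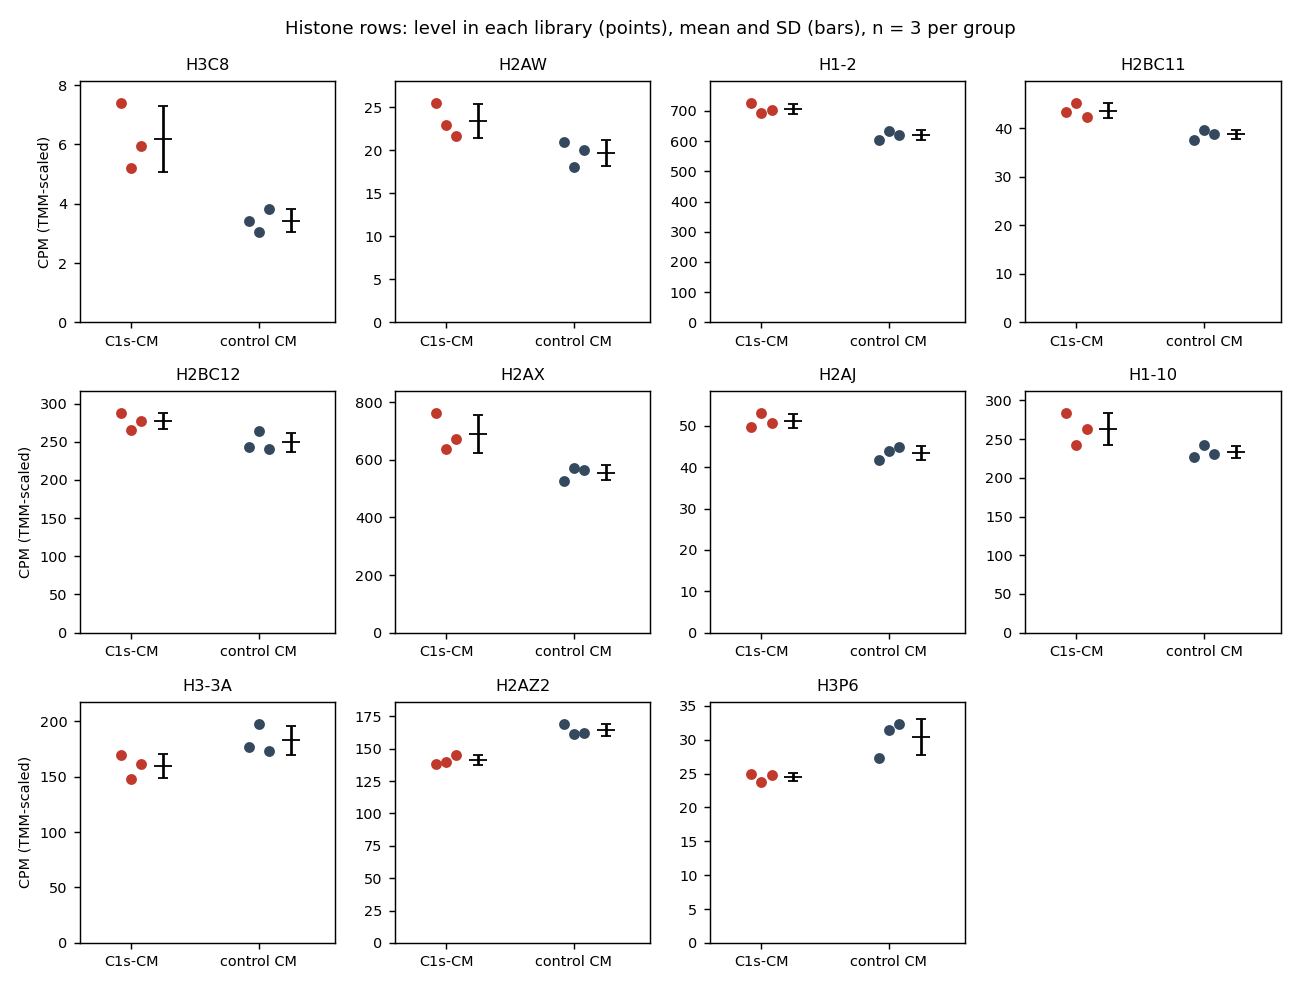
CPM of 11 histone rows (y axes, each starting at 0) in each C1s-CM library (red) and each control CM library (dark blue), with the mean and SD beside the points. The 5 replication histones and H2AX, H2AJ and H1-10 lie higher in C1s-CM, and H3-3A, H2AZ2 and H3P6 lie lower, by small steps in all but H3C8.

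Per kilobase of transcript, H1-2 stood highest of the histone rows, at 1102 ± 26.4 CPM per kilobase in C1s-CM and 965 ± 24.95 in control libraries (SD, n = 3 each). H2BC12 followed at 727 ± 28.2 and 655 ± 32.8, but both are divided by coding-only transcripts of 642 and 381 bases, which sets them high. Below them came H2AX (428 ± 40.2 in C1s-CM and 344 ± 16.1 in control), H2AZ2 (187 ± 5.10 and 219 ± 5.93), H1-10 (174.5 ± 13.5 and 155 ± 5.11) and H3-3A (122 ± 8.27 and 139.6 ± 10.2). In C1s-CM the libraries of H2AZ2 and H1-10 overlapped, and in control those of H1-10 and H3-3A did. H2AJ (79.4 ± 2.71 and 67.6 ± 2.62), H3P6 (59.6 ± 1.56 and 74.0 ± 6.53), H2BC11 (45.9 ± 1.58 and 40.8 ± 1.04) and H2AW (26.1 ± 2.21 and 22.0 ± 1.65) came next, and the control libraries of H2AJ and H3P6 overlapped. H3C8 stood lowest, at 2.56 ± 0.47 CPM per kilobase in C1s-CM and 1.42 ± 0.16 in control. The order also rests on the transcript chosen. H2AZ2 was divided by 752 bases and H2AJ by 644, while their longest annotated transcripts have 3804 and 3107.

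The 13 writers split into 5 higher and 8 lower in C1s-CM, at a median log2 fold change of -0.27, and with the GC and length offsets edgeR called none in either direction, where 25.9% of all genes were called. At an unadjusted p under 0.05 these offsets left 2, KMT2D and KMT2E, both lower, and offsets from the longest transcript or from GC content alone left 2 and 3 calls, all lower. Without the offsets the 13 split by GC content, with all 5 at 50% or more higher and all 8 below it lower. KMT2E, an H3K4-binding member of the trithorax family, is counted as a writer by its symbol alone. It had 34.9, 36.3 and 32.7 CPM in C1s-CM libraries, against 51.3, 49.7 and 51.5 CPM in control libraries. SETD2, which trimethylates H3K36 along transcribed genes, had 32.3, 32.7 and 32.5 CPM in C1s-CM libraries, against 44.4, 46.01 and 47.8 CPM in control libraries. Both had clear gaps between the groups, with log2 fold changes of -0.55 ± 0.06 (SE, edgeR adjusted p = 1.93e-08) for KMT2E and -0.50 ± 0.06 (SE, edgeR adjusted p = 9.15e-08) for SETD2. KMT2C, the H3K4 monomethyltransferase of enhancers, had 36.98, 35.96 and 35.99 CPM in C1s-CM libraries, against 49.3, 43.3 and 49.9 CPM in control libraries. KMT5B, an H4K20 methyltransferase, had 23.8, 25.6 and 22.8 CPM in C1s-CM libraries, against 31.3, 33.5 and 33.1 CPM in control libraries. These were lower in all C1s-CM libraries, at log2 fold changes of -0.39 ± 0.06 (SE, edgeR adjusted p = 7.46e-06) for KMT2C and -0.44 ± 0.07 (SE, edgeR adjusted p = 8.18e-06) for KMT5B. With the offsets the 4 stood at -0.14, -0.08, -0.07 and 0.08 in the order named.

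The KMT2 genes, most of which code for H3K4 methyltransferases, split in direction. KMT2B (log2 fold change 0.29) and KMT2D (0.15) were higher in C1s-CM and KMT2A (-0.20), KMT2C and KMT2E lower, while KMT2C and KMT2D serve in complexes of the same kind. SETD1A, the catalytic part of the main H3K4 trimethylating complex, was at 0.22, and SETD7, a monomethyltransferase, at -0.27. Total-count scaling kept these directions but not the calls of KMT2D (edgeR adjusted p = 0.667) and SETD1A (edgeR adjusted p = 0.0796). With the GC and length offsets none of the 7 was called, and KMT2D (-0.09), KMT2A (0.01), SETD1A (-0.01) and SETD7 (0.10) stood on the other side of 0, while KMT2B was at 0.06. KMT2A shares 5599 exon bases with another annotated gene on its strand, AP001267.5.

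Among acetyltransferases, KAT2A (GCN5, the enzyme of the SAGA complex) had 67.1, 67.02 and 64.5 CPM in C1s-CM libraries, against 53.9, 55.3 and 57.2 CPM in control libraries. KAT6A (MOZ), an H3 acetyltransferase, had 29.4, 27.3 and 27.98 CPM in C1s-CM libraries, against 36.4, 31.4 and 38.5 CPM in control libraries. Its close relative KAT6B (MORF) had 14.9, 15.6 and 16.01 CPM in C1s-CM libraries, against 19.9, 20.03 and 22.1 CPM in control libraries. KAT2A was higher in every C1s-CM library and both KAT6 genes lower, with log2 fold changes of 0.25 ± 0.05 (SE, edgeR adjusted p = 6.8e-05), -0.33 ± 0.08 (SE, edgeR adjusted p = 0.000316) and -0.41 ± 0.09 (SE, edgeR adjusted p = 0.000155) in the order named. The offsets brought these to 0.03, -0.0049 and -0.08. DNMT1, which copies DNA methylation at replication, had 254, 236 and 238 CPM in C1s-CM libraries, against 206, 202 and 212 CPM in control libraries. It was higher in all C1s-CM libraries, at a log2 fold change of 0.23 ± 0.03 (SE, edgeR adjusted p = 1.23e-06), and with the offsets it was 0.065 (edgeR adjusted p = 0.137).

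The 13 erasers were mostly higher in C1s-CM, 10 against 3 lower, at a median log2 fold change of 0.15, but total-count scaling called 1 higher and 3 lower, at a median of 0.02. Of all genes, that scaling called 26.1% higher and 49.2% lower. With the GC and length offsets 4 erasers were called, all higher, where 14.2% of all genes were called higher and 11.7% lower. Of these 4, KDM5A and HDAC2 had been lower without the offsets. Offsets from GC content alone called 1 eraser higher and 1 lower. KDM4B, which removes H3K9 and H3K36 methyl groups, had 61.6, 62.6 and 62.5 CPM in C1s-CM libraries, against 47.4, 52.2 and 51.6 CPM in control libraries. KDM1A (LSD1), the flavin-dependent H3K4 demethylase, had 128, 128 and 129 CPM in C1s-CM libraries, against 114, 114 and 119 CPM in control libraries. KDM3B, an H3K9 demethylase, had 85.6, 89.2 and 93.1 CPM in C1s-CM libraries, against 85.3, 77.3 and 83.4 CPM in control libraries. All 3 were higher in C1s-CM without overlap, KDM3B by the narrowest gap. The log2 fold changes were 0.30 ± 0.05 (SE, edgeR adjusted p = 1.79e-05) for KDM4B, 0.15 ± 0.04 (SE, edgeR adjusted p = 0.000634) for KDM1A and 0.12 ± 0.05 (SE, edgeR adjusted p = 0.0163) for KDM3B. With the offsets KDM1A was 0.12 (edgeR adjusted p = 0.0141) and KDM3B 0.19 (edgeR adjusted p = 0.00241), and KDM4B at 0.07 was not called. KDM1A lost that call without control library 1 (edgeR adjusted p = 0.0746) or 2 (0.0528) and when the longest transcript or GC content alone set the offsets, where it stood at 0.04 and 0.03, and KDM3B lost its own with GC content alone, at 0.03. Without the offsets KDM3B lost its call without C1s-CM library 3 (0.09, edgeR adjusted p = 0.101) and without control library 2 (0.09, edgeR adjusted p = 0.0981), and total-count scaling put it at -0.0021.

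KDM5A, an H3K4 demethylase, had 33.1, 32.8 and 32.02 CPM in C1s-CM libraries, against 39.04, 39.6 and 39.1 CPM in control libraries. KDM3A, an H3K9 demethylase induced by low oxygen, had 51.5, 55.9 and 50.2 CPM in C1s-CM libraries, against 60.4, 62.7 and 59.7 CPM in control libraries. Both lay lower in every C1s-CM library, with log2 fold changes of -0.27 ± 0.06 (SE, edgeR adjusted p = 0.000385) for KDM5A and -0.21 ± 0.05 (SE, edgeR adjusted p = 0.00083) for KDM3A. With the offsets KDM5A was 0.17 (edgeR adjusted p = 0.0425), a call lost without any 1 of the 6 libraries (edgeR adjusted p between 0.0656 and 0.151), and KDM3A was at 0.06. When the longest transcript set the offset, KDM3A was called higher, at 0.22 (edgeR adjusted p = 0.0029). With GC content alone it stood at 0.012. The remaining demethylases were KDM4A at 0.23 and KDM5C at 0.10 (-0.026 with total-count scaling), and calls were lost for KDM4A without control library 3 (0.19, edgeR adjusted p = 0.0528) and for KDM5C without control library 2 (0.09, edgeR adjusted p = 0.0531).

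Of the 6 deacetylases 5 were higher in C1s-CM and HDAC2 was lower. Total-count scaling kept the call of HDAC2, and the other 5 lost theirs, with edgeR adjusted p between 0.0527 (HDAC6) and 0.730 (HDAC3). HDAC6, a cytoplasmic deacetylase of tubulin, had 112, 118 and 115 CPM in C1s-CM libraries, against 98.2, 102 and 98.2 CPM in control libraries. HDAC5, a class IIa repressor partner of MEF2, had 182, 168 and 173 CPM in C1s-CM libraries, against 149, 159 and 144 CPM in control libraries. HDAC7, of the same class, had 76.1, 71.01 and 75.4 CPM in C1s-CM libraries, against 62.5, 61.6 and 68.6 CPM in control libraries. All lay higher in C1s-CM without overlap, at log2 fold changes of 0.21 ± 0.04 (SE, edgeR adjusted p = 3.07e-05) for HDAC6, 0.21 ± 0.04 (SE, edgeR adjusted p = 3.66e-05) for HDAC5 and 0.21 ± 0.05 (SE, edgeR adjusted p = 0.000727) for HDAC7. HDAC11 (0.23) and HDAC3, the enzyme of the NCoR corepressor (0.11), were also higher, though HDAC3 stood at -0.012 with total-count scaling. HDAC2, a class I enzyme of the NuRD, Sin3 and CoREST complexes, had 57.8, 55.8 and 52.4 CPM in C1s-CM libraries, against 66.2, 67.4 and 65.3 CPM in control libraries. It was lower in every C1s-CM library, at -0.26 ± 0.05 (SE, edgeR adjusted p = 6.94e-05). With the offsets the other 5 lay between -0.04 and 0.01, and HDAC2 turned to 0.33 (edgeR adjusted p = 3.23e-05), a call kept without each library in turn.

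Of 13 remodelling factors 7 were higher and 6 lower in C1s-CM, and with the offsets 1 was called, CHD1, lower, where 25.9% of all genes were called. Among the SMARC genes and the SWI/SNF ARID genes the largest differences were in 2 ATPases. SMARCA5 (SNF2H), the ISWI motor, had 55.1, 61.5 and 57.3 CPM in C1s-CM libraries, against 85.7, 84.9 and 87.1 CPM in control libraries. SMARCAD1, a remodeller tied to the upkeep of heterochromatin at replication, had 14.9, 14.2 and 15.2 CPM in C1s-CM libraries, against 23.2, 23.4 and 26.2 CPM in control libraries. Their groups stood well apart, with log2 fold changes of -0.57 ± 0.05 (SE, edgeR adjusted p = 5.91e-10) for SMARCA5 and -0.72 ± 0.09 (SE, edgeR adjusted p = 1.04e-07) for SMARCAD1, and with the offsets these came to -0.02 and -0.10. Of the 7 SWI/SNF subunits among the 55 genes 6 were higher in C1s-CM and 1 lower. SMARCA4 (BRG1), an ATPase of the complex, had 161, 153 and 158 CPM in C1s-CM libraries, against 136, 139 and 135 CPM in control libraries. SMARCB1, a core subunit lost in rhabdoid tumours, had 237, 248 and 234 CPM in C1s-CM libraries, against 196, 204 and 201 CPM in control libraries. Both were higher in all C1s-CM libraries, at log2 fold changes of 0.21 ± 0.04 (SE, edgeR adjusted p = 1.03e-05) for SMARCA4 and 0.26 ± 0.03 (SE, edgeR adjusted p = 1.22e-07) for SMARCB1. SMARCB1 shares 2923 exon bases with DERL3 on the opposite strand. SMARCD3 (0.31), SMARCC2 (0.17), SMARCD2 (0.11) and ARID1A (0.11) were higher as well, and ARID2, a subunit of the PBAF form, was lower at -0.34. With the offsets none of these 7 was called, the smallest edgeR adjusted p being 0.062 (SMARCD2). ARID2 then stood at 0.16, SMARCB1 and SMARCD3 at 0.04, SMARCC2 at -0.0029, SMARCA4 and ARID1A at -0.02 and SMARCD2 at -0.10. SMARCC2 and SMARCD3 lost their calls with total-count scaling (edgeR adjusted p = 0.245 and 0.1103). SMARCD2 and ARID1A turned below 0 with total-count scaling, and lost their calls without control library 3 (SMARCD2, edgeR adjusted p = 0.0822) and without C1s-CM library 1 or control library 2 (ARID1A, edgeR adjusted p = 0.0807 and 0.0802).

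CHD1, which remodels chromatin behind RNA polymerase II, had 24.2, 22.7 and 21.9 CPM in C1s-CM libraries, against 36.8, 39.1 and 41.6 CPM in control libraries. CHD9 had 8.05, 9.74 and 7.86 CPM in C1s-CM libraries, against 13.7, 13.4 and 14.6 CPM in control libraries. CHD2 had 61.2, 62.2 and 58.2 CPM in C1s-CM libraries, against 77.5, 68.2 and 71.9 CPM in control libraries. All 3 were lower in every C1s-CM library, CHD1 at 0.585-fold of control. Their log2 fold changes were -0.77 ± 0.07 (SE, edgeR adjusted p = 1.93e-09) for CHD1, -0.70 ± 0.11 (SE, edgeR adjusted p = 5.67e-06) for CHD9 and -0.26 ± 0.05 (SE, edgeR adjusted p = 9.89e-05) for CHD2. CHD3, an ATPase of the NuRD complex, had 205, 204 and 214 CPM in C1s-CM libraries, against 196, 189 and 194 CPM in control libraries. It was higher in C1s-CM, at a log2 fold change of 0.11 ± 0.03 (SE, edgeR adjusted p = 0.00335), a direction that turned with total-count scaling (-0.02). With the offsets CHD1 was -0.19 (edgeR adjusted p = 0.0432), which held without C1s-CM library 1 and was lost without each of the other 5 libraries (edgeR adjusted p between 0.0504 and 0.188), and the other 3 lay between -0.11 and 0.01.

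The ARID proteins outside SWI/SNF had the lowest class median, -0.74. ARID4A, a partner of the retinoblastoma protein and Sin3, had 11.4, 9.53 and 10.7 CPM in C1s-CM libraries, against 18.6, 18.8 and 19.4 CPM in control libraries. Its relative ARID4B had 8.42, 11.2 and 9.99 CPM in C1s-CM libraries, against 16.9, 18.3 and 14.5 CPM in control libraries. ARID5B, a partner of the demethylase PHF2, had 63.5, 62.3 and 63.1 CPM in C1s-CM libraries, against 78.8, 79.1 and 81.9 CPM in control libraries. No C1s-CM library reached a control library in any of them. The log2 fold changes were -0.84 ± 0.10 (SE, edgeR adjusted p = 5.71e-08) for ARID4A, -0.74 ± 0.12 (SE, edgeR adjusted p = 3.6e-06) for ARID4B and -0.34 ± 0.05 (SE, edgeR adjusted p = 4.65e-07) for ARID5B. With the offsets ARID4A was -0.27 (edgeR adjusted p = 0.0434), again lost without each library but C1s-CM library 1 (edgeR adjusted p between 0.0707 and 0.181), and ARID4B at -0.20 and ARID5B at 0.04 were not called. BRD2, the BET bromodomain reader of acetylated H4, had 286, 284 and 289 CPM in C1s-CM libraries, against 282, 271 and 278 CPM in control libraries. These levels nearly met, with a log2 fold change of 0.050 ± 0.03 (SE, edgeR adjusted p = 0.0987), and with the offsets it was -0.12 (edgeR adjusted p = 0.00099), a call kept without each library in turn. Total-count scaling put it at -0.076.

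**Figure D4:**
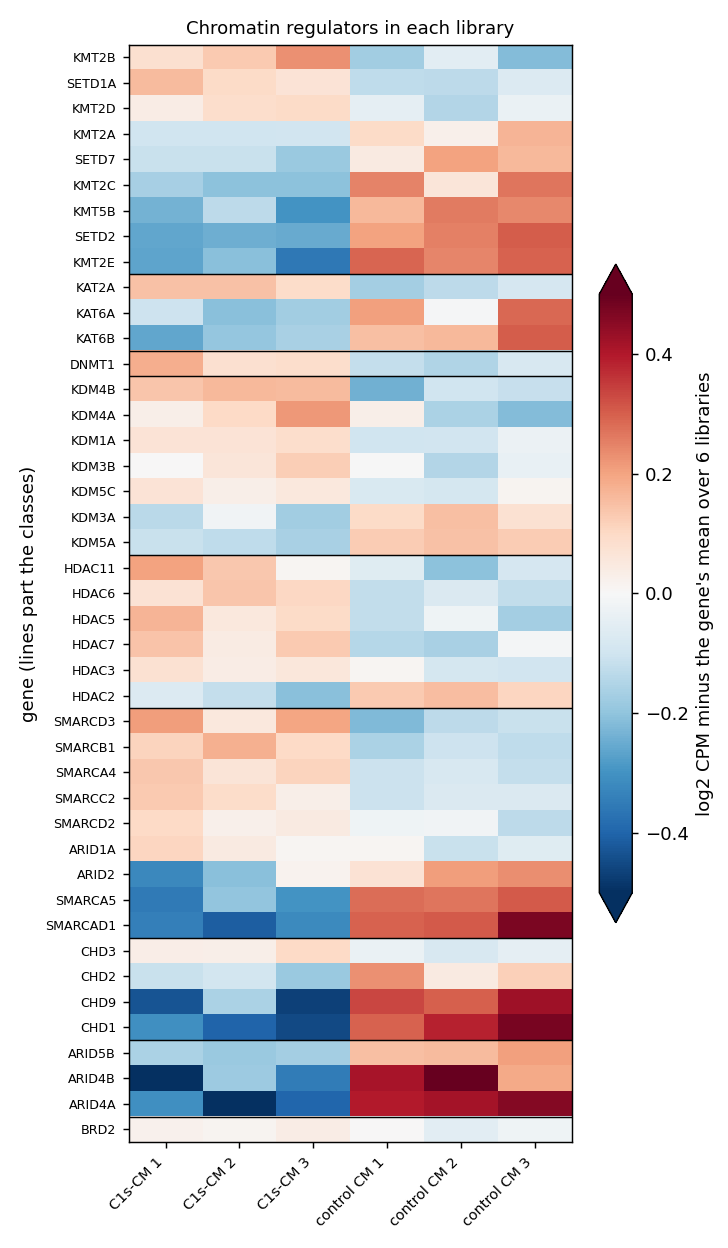
Each cell gives the log2 CPM of a chromatin regulator (rows, grouped by class) in a C1s-CM library (left 3 columns) or a control CM library (right 3 columns) minus the gene's mean over the 6 libraries, in red above and in blue below that mean. Rows such as SETD2, SMARCA5 and CHD1 are blue in all C1s-CM columns, and rows such as SMARCB1 and KDM4B red, with like shades among the libraries of a group.

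Both fits called 13 of the 55 genes, 8 in the same direction and 5 in opposite ones. The 8 include H3C8, KDM1A and KDM3B, higher in C1s-CM, and H2AZ2, H3P6, CHD1 and ARID4A, lower. The 5 are H1-10 and H2BC12, which were higher without the offsets, and H3-3A, KDM5A and HDAC2, which were lower. With the offsets 9 calls, among them those of H3C8, H2AZ2, H1-10, H2BC12, H3P6, KDM3B, HDAC2 and BRD2, were kept without each of the 6 libraries in turn, a check added after the data were seen.

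Genes that work with these were read from 9 lists, and all 135 rows were called, near the table's 99.4%. Of the Polycomb proteins, which repress by H3K27 methylation and H2A ubiquitination, 7 of 13 with a row were higher and 6 lower, among them the PRC2 subunit SUZ12 at -0.70 (-0.16 with the offsets). Total-count scaling called 3 of them higher and 6 lower, and the offsets 1 higher and 4 lower. Of other histone methyltransferases 8 of 10 were higher and 2 lower, with EHMT2, the H3K9 enzyme G9a, at 0.27. Total-count scaling called 3 higher and 2 lower and the offsets 1, higher, with EHMT2 at 0.04 and not called (edgeR adjusted p = 0.364). Of other acetyltransferases and their partners 7 of 9 were lower and 2 higher, with HAT1, which acetylates new H4, at -0.43. Total-count scaling called 7 lower and 1 higher, while the offsets called 3 lower and 2 higher at a median of 0.03, with HAT1 at 0.03 and not called (edgeR adjusted p = 0.693). Sirtuins and deacetylase complexes had 9 of 12 higher and 3 lower, with the NuRD subunit MBD3 at 0.44 (0.14 with the offsets). These counts were 6 and 4 with total-count scaling and 2 and 2 with the offsets. Other remodelling subunits had 11 of 14 lower and 3 higher (11 and 2 with total-count scaling, 2 and 1 with the offsets), with HELLS, needed for DNA methylation of repeats, at -0.71 (-0.22 with the offsets) and RUVBL2, an ATPase of the INO80 and TIP60 complexes, at 0.33 (0.08 with the offsets). Of DNA methylation readers and demethylases 3 of 8 were higher and 5 lower, and total-count scaling called 5, all lower. With the offsets these 6 lists had 7 called higher and 11 lower in all, where 14.2% and 11.7% of all genes were called. Without the offsets no row of these 6 lists with a GC content under 50% had a fold change above 0. All rows with 50% or more did, except among the acetyltransferases and their partners, with 2 of 3.

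Histone chaperones and histone message processing factors had 5 of 16 higher and 11 lower, against 2 higher and 11 lower with total-count scaling and 3 higher and 4 lower with the offsets. ANP32E, which removes H2A.Z, was at -0.65, and NAP1L1, a chaperone of H2A and H2B, was at -0.30. SUPT6H, an H3 and H4 chaperone of elongating polymerase, was at 0.30. With the offsets the values were -0.10, 0.30 and 0.25, so NAP1L1 turned. NPAT, the coactivator of replication histone genes and named after its value was seen, was at -0.62, and at -0.04 with the offsets. Beside the replication histones, which were all higher, S phase genes had 10 of 24 higher and 14 lower, with a median of -0.16 (the bromodomain ATPase ATAD2 at -0.63, the thymidine kinase TK1 and the helicase subunit MCM5 both at 0.30), and with the offsets 5 were called each way. Total-count scaling called 8 higher and 14 lower, at a median of -0.29. With the offsets ATAD2 was at -0.09, TK1 at 0.02 and MCM5 at 0.12, and TK1 was not called. Genes of G2 and M phase had 8 of 29 higher and 21 lower, with a median of -0.41, and with the offsets 6 were called higher and 7 lower. Total-count scaling called 1 higher and 22 lower, at a median of -0.54. Of all genes, total-count scaling called 26.1% higher and 49.2% lower, and the offsets 14.2% and 11.7%. These 3 lists also split by GC content without the offsets. At 50% or more, 5 of 5 chaperone, 9 of 10 S phase and 7 of 7 G2 and M rows were above 0. Below it 0 of 11, 1 of 14 and 1 of 22 were. The part of the cell cycle in the histone values was not tested.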

How the data were processed

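RNA of 6 HMC3 libraries was poly(A)-selected per the labels' protocols. Per the submitters' processing notes, the tools were HISAT2 2.2.1, Trim Galore 0.6.7, FastQC 0.11.9 and DESeq2 1.40.2 and the build GRCh38. How reads were counted, on which annotation and with which strand setting, is not given in the sources used here. The authors deposited raw counts per gene beside their own log2 fold change, p-value and its adjusted form, per the file headers. In the authors' deposited table no adjusted p-value exceeds 0.05, so all 5117 genes are calls of the authors.

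The counts as deposited were tested with edgeR 4.0.16 in R 4.3.3 (two-sided quasi-likelihood test between the groups with no other term, after filterByExpr and TMM, Benjamini-Hochberg over 5116 genes, threshold 0.05). TMM assumes mostly unchanged genes, and here every row is a call. SE is the log2 fold change over the square root of F. Offsets per library came from a loess fit (span 0.3) on the GC content and log length of a representative GENCODE 29 transcript, over 5112 genes. The quantity fitted was each gene's log2 CPM in that library minus its mean over all libraries. These offsets also remove any biology that tracks GC content. The edgeR fit, without and with these offsets, was first tested on simulated counts in which 200 genes were changed. That setting differs from this table, where every row is a call, and the other fits were not simulated. DESeq2 1.42.0 was an alternative.

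The members, classes and lists were chosen with earlier results of these data known. All rows that the symbol rule finds are members. Values per library are given for the histone rows, for up to 4 members of each other class with the smallest p, and for members called in the same direction with and without offsets. Genes of the lists are named from the 3 with the smallest p, NPAT excepted. Sequences are from RefSeq (promoters, 48 of the 55 genes matched) and GENCODE 29 (stem-loops). Values of 1 histone row and of 1 marker gene are not reported here.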

Additional observations from a re-analysis of the deposited data

How the results depend on the processing

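The fold changes described here keep their direction without any 1 library, with either filter on low counts, with the replicate block and with DESeq2, and 48 of 55 keep it with total-count scaling. Without each library in turn 26 to 30 of the 55 genes were called higher in C1s-CM and 24 lower, and with the offsets 4 to 5 higher and 6 to 10 lower. DESeq2 called 26 higher and 24 lower, without KDM3B, KDM5C, SMARCD2 and ARID1A. Same-numbered libraries did not deviate together (correlations -0.13, -0.09 and -0.003), so no pairing by number was seen. With so few libraries per group this cannot exclude one. The replicate block left the counts at 30 and 24. No sequencing depth of the whole libraries is known, low rows such as H3C8 rest on 43 to 101 counts per library, and the cause of the changes below was not tested.

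Total counts as the only scaling gave 9 higher and 25 lower calls in C1s-CM of the 55 genes, and 1336 higher and 2517 lower over the table. By class the calls were 3 higher and 3 lower for histones, 3 higher and 8 lower for writers, 1 higher and 3 lower for erasers, 2 higher and 6 lower for remodelling factors and 0 higher and 3 lower for other ARID proteins. Among erasers the log2 fold change turned for KDM3B (-0.0021), KDM5C (-0.026) and HDAC3 (-0.012). Among remodelling factors the log2 fold change turned for SMARCD2 (-0.012), ARID1A (-0.017) and CHD3 (-0.019). Among the other ARID and bromodomain proteins the log2 fold change turned for BRD2 (-0.076).

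The offsets for GC content and length of the representative transcript gave 6 higher and 8 lower calls in C1s-CM of the 55 genes, and 725 higher and 599 lower over the table. By class the calls were 2 higher and 4 lower for histones, 0 higher and 0 lower for writers, 4 higher and 0 lower for erasers, 0 higher and 1 lower for remodelling factors and 0 higher and 1 lower for other ARID proteins. Among histones the log2 fold change turned for H2AX (-0.0087), H2AJ (-0.13), H1-10 (-0.17), H3-3A (0.17), H2AW (-0.0079), H1-2 (-0.076) and H2BC12 (-0.31). Among writers the log2 fold change turned for SETD1A (-0.011), KMT2D (-0.093), KMT2A (0.014), SETD7 (0.10) and KMT5B (0.081). Among erasers the log2 fold change turned for KDM5C (-0.071), KDM3A (0.058), KDM5A (0.17), HDAC11 (-0.0077), HDAC5 (-0.021), HDAC7 (-0.040), HDAC3 (-4.2e-05) and HDAC2 (0.33). Among remodelling factors the log2 fold change turned for SMARCA4 (-0.019), SMARCC2 (-0.0029), SMARCD2 (-0.10), ARID1A (-0.018), ARID2 (0.16) and CHD2 (0.011). Among the other ARID and bromodomain proteins the log2 fold change turned for ARID5B (0.036) and BRD2 (-0.12).

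Offsets from the longest transcript gave 7 higher and 12 lower calls in C1s-CM of the 55 genes, and 741 higher and 647 lower over the table. By class the calls were 3 higher and 4 lower for histones, 0 higher and 2 lower for writers, 4 higher and 1 lower for erasers, 0 higher and 2 lower for remodelling factors and 0 higher and 1 lower for other ARID proteins. Among histones the log2 fold change turned for H2AX (-0.017), H1-10 (-0.17), H3-3A (0.027), H2AZ2 (0.13), H2AW (-0.014), H1-2 (-0.11) and H2BC12 (-0.30). Among writers the log2 fold change turned for SETD1A (-0.028), KMT2D (-0.12), KMT2A (0.0034), SETD7 (0.076) and KMT5B (0.023). Among erasers the log2 fold change turned for KDM5C (-0.058), KDM3A (0.22), KDM5A (0.16), HDAC11 (-0.024), HDAC5 (-0.029), HDAC3 (-0.079) and HDAC2 (0.33). Among remodelling factors the log2 fold change turned for SMARCA4 (-0.033), SMARCC2 (-0.038), SMARCD2 (-0.13), ARID1A (-0.038), ARID2 (0.15) and CHD3 (-0.012). Among the other ARID and bromodomain proteins the log2 fold change turned for ARID5B (0.014) and BRD2 (-0.15).

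Offsets for GC content alone gave 4 higher and 15 lower calls in C1s-CM of the 55 genes, and 712 higher and 707 lower over the table. By class the calls were 3 higher and 4 lower for histones, 0 higher and 3 lower for writers, 1 higher and 1 lower for erasers, 0 higher and 4 lower for remodelling factors and 0 higher and 1 lower for other ARID proteins. Among histones the log2 fold change turned for H2AX (-1.3e-05), H2AJ (-0.044), H1-10 (-0.16), H3-3A (0.33), H1-2 (-0.027) and H2BC12 (-0.10). Among writers the log2 fold change turned for SETD1A (-0.050), KMT2D (-0.092) and KMT5B (0.088). Among erasers the log2 fold change turned for KDM5C (-0.12), KDM3A (0.012), KDM5A (0.078), HDAC11 (-0.019), HDAC6 (-0.011), HDAC5 (-0.044), HDAC7 (-0.060), HDAC3 (-0.053) and HDAC2 (0.27). Among remodelling factors the log2 fold change turned for SMARCA4 (-0.049), SMARCC2 (-0.023), SMARCD2 (-0.12), ARID1A (-0.11), ARID2 (0.11) and CHD3 (-0.093). Among the other ARID and bromodomain proteins the log2 fold change turned for BRD2 (-0.14).

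The replicate block with GC and length offsets gave 5 higher and 6 lower calls in C1s-CM of the 55 genes, and 667 higher and 514 lower over the table. By class the calls were 2 higher and 4 lower for histones, 0 higher and 0 lower for writers, 3 higher and 0 lower for erasers, 0 higher and 0 lower for remodelling factors and 0 higher and 0 lower for other ARID proteins. Among histones the log2 fold change turned for H2AX (-0.0098), H2AJ (-0.13), H1-10 (-0.17), H3-3A (0.17), H2AW (-0.0086), H1-2 (-0.076) and H2BC12 (-0.31). Among writers the log2 fold change turned for SETD1A (-0.011), KMT2D (-0.093), KMT2A (0.015), SETD7 (0.10) and KMT5B (0.081). Among erasers the log2 fold change turned for KDM5C (-0.070), KDM3A (0.057), KDM5A (0.17), HDAC11 (-0.0089), HDAC5 (-0.020), HDAC7 (-0.039), HDAC3 (-4.9e-06) and HDAC2 (0.33). Among remodelling factors the log2 fold change turned for SMARCA4 (-0.019), SMARCC2 (-0.0034), SMARCD2 (-0.10), ARID1A (-0.018), ARID2 (0.16) and CHD2 (0.010). Among the other ARID and bromodomain proteins the log2 fold change turned for ARID5B (0.036) and BRD2 (-0.12).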
